A study of Rattus norvegicus with 21 samples.

Results

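Wide peaks of the transcription factor KLF2 were described in NRVMs, or neonatal rat ventricular myocytes, with KLF2 overexpressed. These are beating muscle cells isolated from the ventricles of newborn rats and kept in primary culture. Members were the peaks of the deposited list on chromosomes 1, 2, 4 to 20 and X whose end minus start was 600 bp or more. There were 592 of them, 24.6% of the 2403 peaks on these 20 chromosomes, and the list held 3065 peaks in all. The remaining 1811 peaks of the same chromosomes are called narrower peaks here. The members were thus chosen by their measured widths, so everything the same library measured at these peaks is given as a description, with no test.

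The peaks came from 1 library made by CUT&Tag, an assay in which an antibody against a chromatin protein brings a transposase to its binding sites, which are then cut, tagged and sequenced. Its title gives overexpression of KLF2 in NRVMs and names no vector, time or treatment with phenylephrine (PE), the α1-adrenergic agonist with which the study induces hypertrophy. The protocol shared by all samples describes overexpression by an adenovirus, Ad-Klf2, with and without PE, so the PE state of this library is not given in the sources used here. No replicate and no control library of this assay was analysed here, so none of the values below carries an error between samples. The study also made 20 RNA sequencing libraries, which were not used here because their genes could not be placed beside the peaks. The identity of the cells was not checked against marker genes, and the cells' own Klf2 level was not analysed here.

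KLF2 belongs to the Krüppel-like factors, which bind DNA through zinc fingers near the end of the protein and favour CACCC and GC-rich elements, often in promoters and enhancers. It is best known in the vessel wall, where shear stress induces it in endothelial cells and where it raises anti-inflammatory and anti-thrombotic genes. A peak caller joins neighbouring positions with enough reads into 1 interval, so a width gives how far the enriched stretch extends and not how many sites were bound. Each peak has a summit, the position of highest enrichment, and a signal value. This value is read here as a fold enrichment, a ratio of signal to a background that the sources used here do not describe. The −log10 q of a peak is the strength of the call after correction for many tests, and higher values mean stronger calls.

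Wide peaks had higher fold enrichment than narrower ones, with a median of 5.35 (quartiles 4.15 and 7.04) against 4.35 (quartiles 3.73 and 5.38). The 2 ranges overlapped almost fully, from 1.58 to 23.2 in wide peaks and from 1.60 to 24.6 in narrower ones. Strength of the call, which is on a different scale, was also higher in wide peaks. The median −log10 q was 14.3 (quartiles 8.39 and 26.4) against 6.84 (quartiles 4.61 and 11.6). A −log10 q of at least 10 was reached by 389 wide peaks (65.7%) and by 523 narrower ones (28.9%). Wide peaks, 24.6% of all peaks here, made up 55 of the 100 with the highest fold enrichment and 56 of the 100 with the highest −log10 q. A fold enrichment of 10 or more was reached by 41 wide (6.93%) and 34 narrower peaks (1.88%). At the other end, 8.45% of the wide peaks (50) and 8.45% of the narrower peaks (153) were under a fold of 3.

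The median width was 794.5 bp in wide peaks, and the upper quartile was 983 bp. Those of 1000 bp or more numbered 142 (24%), and 17 reached 2000 bp. Wide peaks covered 539011 bp, or 44% of all bases in peaks of these chromosomes. The limit of 600 bp did not fall at a step in the values. The 20 peaks of 600 to 609 bp had a median fold enrichment of 5.07 (range 1.94 to 11.3) and a median −log10 q of 12.1. The 22 peaks of 590 to 599 bp had a median fold of 5.38 (range 1.96 to 8.07) and a median −log10 q of 10.4.

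Fold enrichment did not follow width through the whole range. From the narrowest class, under 300 bp, to the class of 800 to 999 bp, the median fold went from 3.93 to 5.74 without a break. It was 5.75 at 1000 to 1199 bp and then lower, at 4.93 in the 43 peaks of 1200 to 1499 bp, 5.13 in the 21 of 1500 to 1999 bp and 4.54 in the 17 of 2000 bp or more. The last of these classes is thinly filled. Over those 3 classes, 81 peaks, the median was 4.79 (quartiles 3.50 and 6.43). The median −log10 q, in contrast, was higher in the widest peaks, at 10.5 in the class of 600 to 699 bp, 29.7 at 1500 to 1999 bp and 42.6 at 2000 bp or more. Across the 592 wide peaks the Spearman correlation with width was 0.02 for fold enrichment and 0.33 for −log10 q. These are correlations across peaks of 1 library, which share its depth and background. The width classes were chosen after the values were seen. They also differed in spacing. Another peak lay within 10 kb of 61.7% of the 81 peaks of 1200 bp or more. This share was 26.9% at 600 to 699 bp, 30.5% at 700 to 799 bp, 28.7% at 800 to 999 bp and 41% at 1000 to 1199 bp. The folds of the width classes were not split by this distance.

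**Figure D1:**
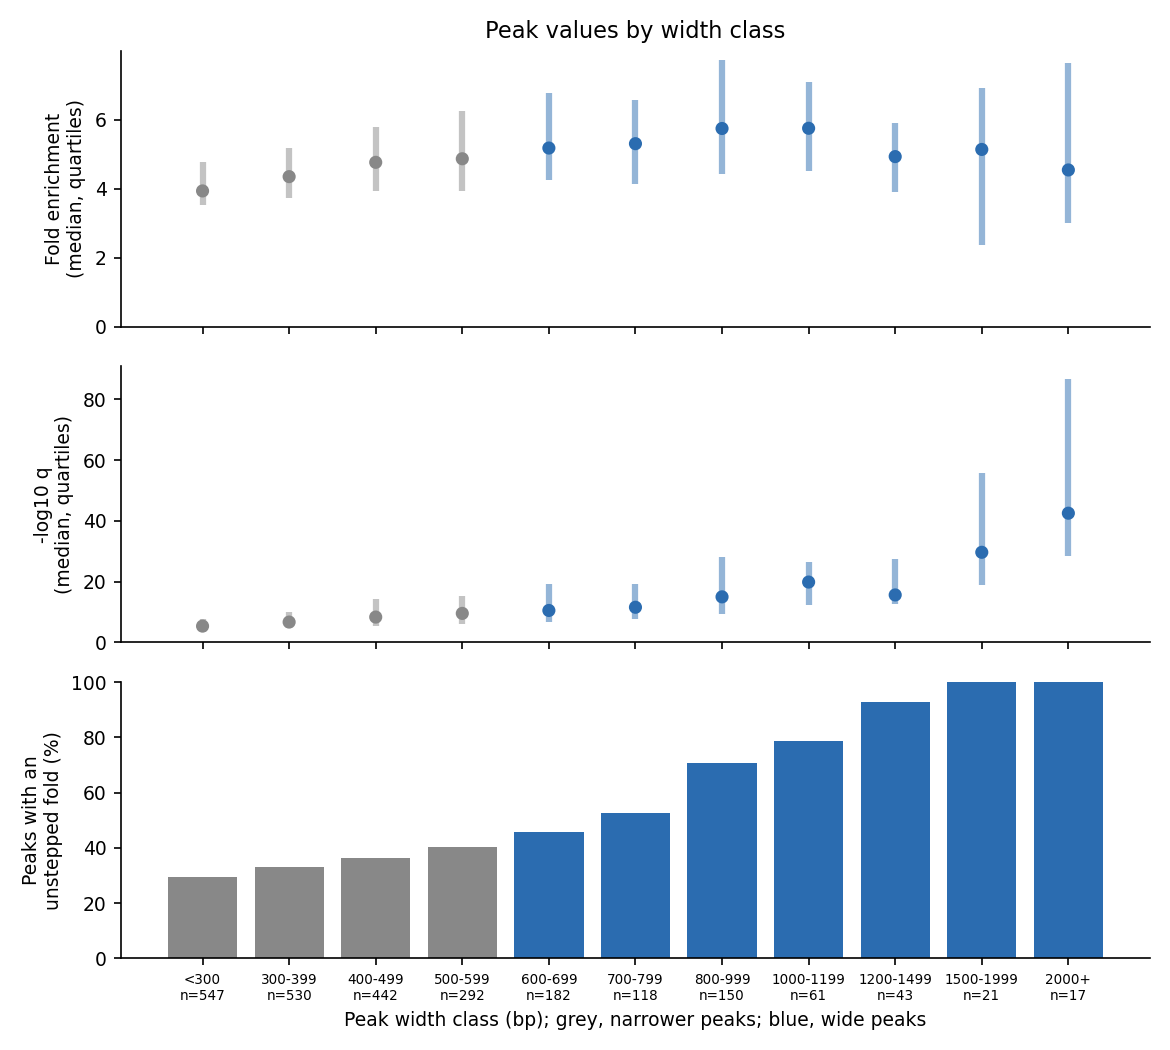
Peaks of the 20 chromosomes by width class, with the number in each class under the axis: median and quartiles of fold enrichment (top) and of −log10 q (middle), and the percentage of peaks with an unstepped fold enrichment (bottom). The median fold is highest at 800 to 1199 bp, while the share of unstepped peaks goes from 29.4% under 300 bp to 100% from 1500 bp upward.

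Many of the deposited fold enrichments repeated the same values. They were whole multiples of 0.207, within 0.001 of a whole number of steps, in 215 wide peaks (36.3%) and in 1196 narrower peaks (66%). Such peaks are called stepped here and the others unstepped. All stepped peaks of 1 step had 1 and the same −log10 p, as the 131 peaks with a fold of 4.35, which were each at a −log10 p of 9.04. Fold and p-value were therefore tied together in stepped peaks. Unstepped peaks made up 377 of the wide peaks (63.7%) and 615 of the narrower ones (34%). Their share went up with width, from 45.6% at 600 to 699 bp to 70.7% at 800 to 999 bp, and it reached all 38 peaks of 1500 bp or more. What the background of each peak was is not given in the sources used here.

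Among wide peaks the stepped kind had the narrower range of fold enrichment, from 3.52 to 11.2 with a median of 5.59. Their highest −log10 q, 36.9, was that of the peak with the highest fold, since fold and p-value are tied in stepped peaks. Their widths ended at 1344 bp, with a median of 709 bp. Unstepped wide peaks held both extremes, with folds of 1.58 to 23.2 around a median of 5.05, all 50 wide peaks under a fold of 3, and all 26 with a −log10 q of 100 or more. Those under a fold of 3 were 13.3% of the unstepped wide peaks and 24.9% of the unstepped narrower peaks, while no stepped peak of either width was under 3. The lowest step was a fold of 3.10, at a −log10 p of 4.91, near the lowest −log10 p of any narrower peak, 4.58. A lower step would have a lower −log10 p, so this absence is not read as a difference between the kinds. Unstepped wide peaks had a median width of 866 bp and a median −log10 q of 19.9, against 9.97 in stepped wide peaks. Wide peaks had a higher median fold than narrower peaks within both kinds. It was 5.59 against 4.55 among stepped peaks, and 5.05 against 3.70 among unstepped peaks.

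**Figure D2:**
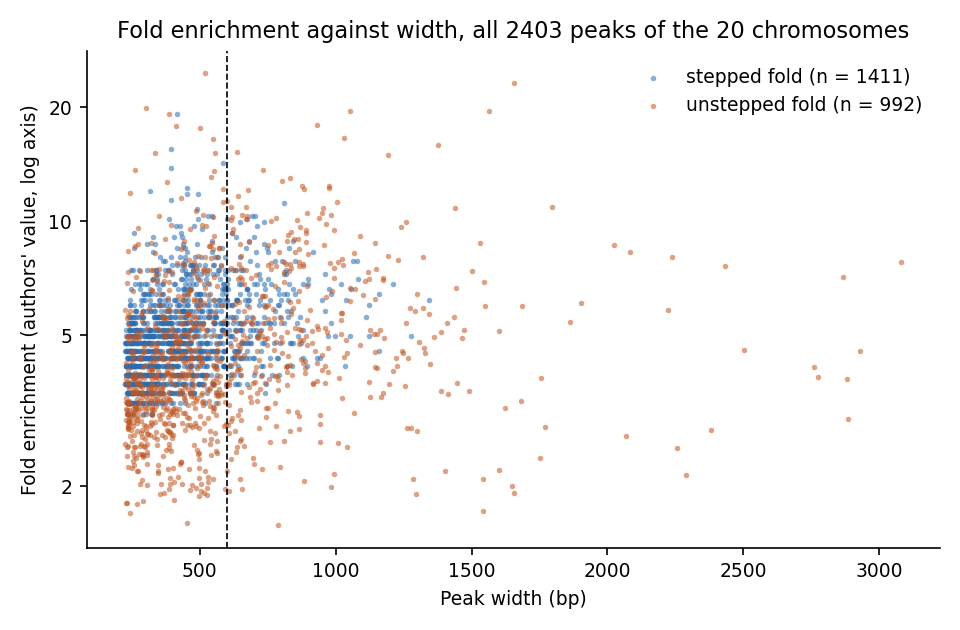
Fold enrichment (log axis) against width in bp for each of the 2403 peaks, with stepped peaks in blue, unstepped peaks in orange and a dashed line at 600 bp. Stepped peaks form horizontal rows and end at a width of 1344 bp, whereas the widest, the weakest and the strongest wide peaks are unstepped.

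Of the stepped wide peaks, 5 (2.33%) reached a fold of 10, and they were named after their values were seen. Among stepped narrower peaks 14 (1.17%) did, and these held the highest stepped folds, up to 19.2 with a −log10 q of up to 86.5. The strongest of the 5 wide ones lay at 19486132 to 19486939 on chromosome 8, 808 bp wide, with a fold enrichment of 11.2 and a −log10 q of 36.9. On chromosome 17 a peak at 55234447 to 55235148 and on chromosome 2 a peak at 164762503 to 164763194 were on the same step, at 10.3, with a −log10 q of 32.4. One at 204668729 to 204669328 on chromosome 1 and another at 121523401 to 121524072 on chromosome 8 both had a fold of 10.1. The peak on chromosome 2 was 4403760 bp from any other peak, and that at 204669328 on chromosome 1 was 11817 bp from one.

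The 10 wide peaks of highest fold enrichment were all unstepped, and several lay at the first or last called position of a chromosome. Coordinates are those of the rat build mRatBN7.2, counted from 1. The highest fold, 23.2, was at 369 to 2023 on chromosome 13, with a −log10 q of 950.1. The next were at 2025 to 3076 on chromosome 14, with a fold of 19.6, and at 186 to 1751 on chromosome 15, also with 19.6. These 3 and a peak at 185 to 1375 on chromosome 18, with a fold of 15, were the first peaks of their chromosomes. The peaks at 57336235 to 57337164 on chromosome 19, with a fold of 17.9, and at 46637354 to 46638382 on chromosome 12, with 16.6, were the last of theirs. On chromosome 6 a peak at 140990382 to 140991756 had a fold of 15.9, and 285 bp away lay a wide peak with a fold of 2.47. The last peak of chromosome 6, a narrower one, lay close by at 140993080 to 140993676. The other 3 were at 51609962 to 51610598 on chromosome 19, with a fold of 15.2, at 1416947 to 1417678 on chromosome 9, with 13.7, and at 20167276 to 20168107 on chromosome 8, with 13.

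Ends of the peak range stood out in width as well. Of the 20 first peaks of a chromosome 13 were wide, and of the 20 last peaks 12, which is 62.5% of these 40 peaks against 24% of all others. The first 10 kb of a chromosome held 30 peaks on 15 chromosomes, of which 11 were wide and none was stepped. The 25 wide first or last peaks had a median width of 1441 bp, a median fold of 8.07 and a median −log10 q of 88.1. In the other 567 wide peaks these medians were 787 bp, 5.17 and 13.4. Only 1 of the 25 was stepped. They supplied 6 of the 10 wide peaks of highest fold and 10 of the 20 widest.

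Of the 5 widest peaks, 4 were first or last on their chromosome. The widest of all, 3081 bp, was the last peak of chromosome 2, at 249049398 to 249052478, with a fold of 7.82 and its nearest neighbour 5735120 bp away. The next was the last peak of chromosome 8, at 123896957 to 123899888, 2932 bp wide with a fold of 4.54. The first peak of chromosome 6, at 143 to 3028, was 2886 bp wide with a fold of 3.02. That of chromosome 16, at 38 to 2903, was 2866 bp wide with a fold of 7.11. The remaining one lay at 21376 to 24257 on chromosome X, 2882 bp wide with a fold of 3.83. It was also near the start of its chromosome, whose first peak was at 1093 to 2115. In the 4 first or last peaks the summit was 193 to 399 bp from an edge, while in the peak on chromosome X it was 1302 bp from the nearer edge.

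With all peaks pooled, summits of wide peaks were spread around the centre much like those of narrower peaks. The distance of the summit from the centre, as a percentage of the way from centre to edge, had a median of 37% in wide peaks (quartiles 16.9% and 58.6%) and of 38.5% in narrower peaks (quartiles 19% and 59.3%). The summit was left of the centre in 300 wide peaks and right of it in 292. It lay in the inner 25% of this way in 217 wide peaks (36.7%) and 581 narrower ones (32.1%), and in the outer 25% in 61 (10.3%) and 195 (10.8%). For peaks with no other peak within 10 kb, the inner shares were 38.6% of the wide and 30.1% of the narrower. With a peak within 10 kb the order was the other way, at 33% of the wide and 37.8% of the narrower. In bp, the summit was a median of 256.5 from the nearer edge in wide peaks and 104 in narrower peaks. It was within 50 bp of an edge in 13 wide peaks (2.2%) and 251 narrower peaks (13.9%), a difference that the widths themselves contain. The 17 peaks of 2000 bp or more had the most lateral summits, with a median distance of 65.4% of the way to the edge.

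**Figure D3:**
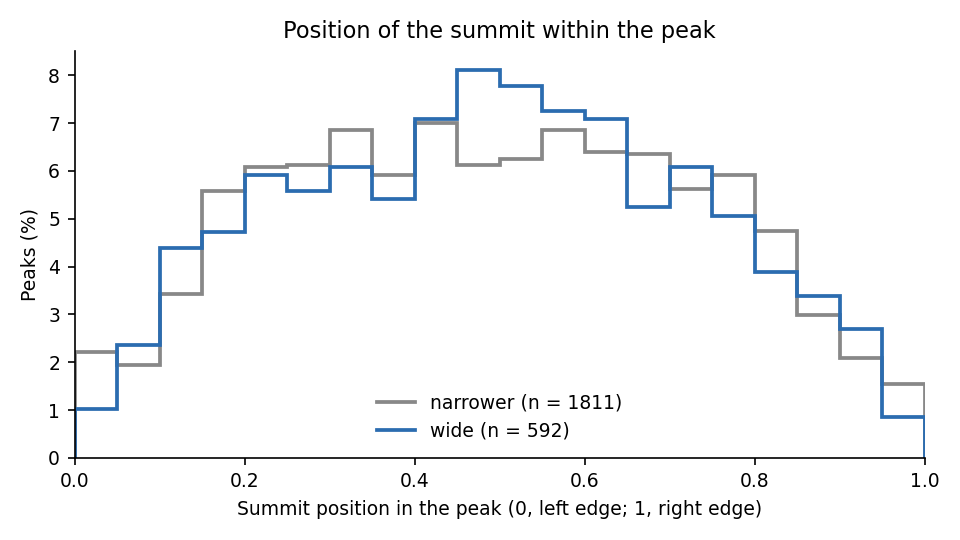
Position of the summit between the left edge (0) and the right edge (1) of the peak, as the percentage of wide (blue, n = 592) and narrower (grey, n = 1811) peaks in each of 20 equal intervals. Both outlines are broad and about symmetric, with 300 wide summits left of the centre and 292 right of it.

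Wide peaks lay closer to other peaks than narrower ones did when stepped and unstepped peaks were pooled. The median distance from edge to edge to the nearest other peak was 41116 bp for wide peaks (quartiles 4065 and 220680) and 80179 bp for narrower peaks (quartiles 9322 and 362650). Another peak lay within 10 kb of 203 wide peaks, 34.3% (exact binomial 95% interval 30.5% to 38.3%), and of 466 narrower peaks, 25.7% (23.7% to 27.8%). These intervals cover counting error only and take peaks as independent, which neighbours are not. Among unstepped peaks the order was the other way, as 52% of the wide (196 of 377, interval 46.8% to 57.1%) and 65.9% of the narrower (405 of 615, interval 62% to 69.6%) had a peak within 10 kb. Among stepped peaks 3.26% of the wide (7 of 215, interval 1.32% to 6.59%) and 5.1% of the narrower (61 of 1196, interval 3.92% to 6.5%) did, with intervals that overlap. No wide stepped peak was within 1 kb of another peak, whereas 72 wide unstepped peaks (19.1%) were. The median distance was 157280 bp for stepped wide peaks and 176560 bp for stepped narrower peaks. It was 8547 and 3533 bp for the unstepped. Unstepped peaks, the crowded kind, made up the larger part of the wide peaks and the smaller part of the narrower ones, as given above.

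**Figure D4:**
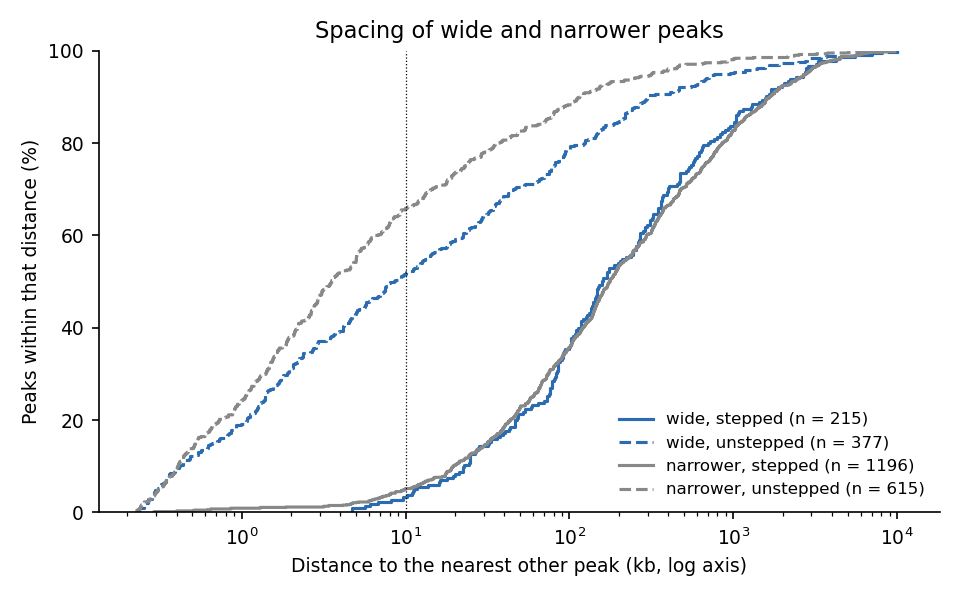
Cumulative percentage of peaks whose nearest other peak lies within the distance on the log axis (kb), for wide (blue) and narrower (grey) peaks with stepped (solid) and unstepped (dashed) folds, and a dotted line at 10 kb. The solid lines nearly coincide, and at 10 kb the dashed lines stand at 52% for wide and 65.9% for narrower peaks.

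Isolated wide peaks had higher folds than crowded ones. The median fold was 3.39 in the 72 wide peaks within 1 kb of another peak and 4.33 in the 131 between 1 and 10 kb. It was 6.21 in the 171 between 10 and 100 kb, 5.79 in the 165 between 100 kb and 1 Mb, and 6.21 in the 53 beyond 1 Mb. Narrower peaks showed the same order, with median folds of 3.35 within 1 kb, 3.68 between 1 and 10 kb, and 4.55 in each class beyond. Unstepped wide peaks showed the fold difference on their own, with a median of 4.04 for the 196 within 10 kb of a peak and 6.93 for the 181 farther away. The median −log10 q of wide peaks was 20.6 within 1 kb and 13.4 beyond 1 Mb, where 0 of 72 and 35 of 53 were stepped. Among unstepped wide peaks alone it was 19.6 within 10 kb and 20 farther away. The median distance to the nearest other wide peak was 262110 bp. For 156 wide peaks (26.4%) the nearest neighbour was itself wide, and this was so for 436 narrower peaks (24.1%).

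Peaks less than or equal to 10 kb apart were joined into runs, of which 42 held 5 peaks or more, on 16 chromosomes. These runs held 115 wide peaks (19.4%) and 229 narrower ones (12.6%). Both shares pool stepped and unstepped peaks and were not computed for each kind. Among unstepped peaks the order within 10 kb was the other way, as given above. The run with the most wide peaks lay at 55004540 to 55074770 on chromosome 1, with 15 wide among 22 peaks in 70.2 kb. Its wide peaks had a low median fold of 2.22 (range 1.91 to 4.79) beside −log10 q values of 7.04 to 76.8. A run at 147657523 to 147699003 on chromosome 4 held 6 wide peaks among 14, with a median fold of 2.66, and one at 370 to 45410 on chromosome 10 held 5 among 17, with 2.55. Runs at 43516880 to 43546675 on chromosome 15 and 20000993 to 20054997 on chromosome 16 also had 5 wide peaks each, with median folds of 1.91 and 3.56. No wide peak of these 5 runs was stepped. The megabase from 20 to 21 Mb on chromosome 16 held 50 peaks, 14 of them wide.

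The 3 closest pairs of wide peaks were 235, 258 and 266 bp apart. The first was at 10655520 to 10656384 and 10656620 to 10657477 on chromosome 13, with folds of 3.06 and 3.14. The second was at 175343890 to 175345034 and 175345293 to 175346093 on chromosome 4, with folds of 4.11 and 4.79. The third was part of the run on chromosome 1, at 55029436 to 55030417 and 55030684 to 55032973, with folds of 1.99 and 2.14. In all 3 pairs both folds were below the median of wide peaks. No peaks of these chromosomes, wide or narrower, were closer than 229 bp.

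Every one of the 20 chromosomes carried wide peaks, from 11 on chromosome 18 to 102 on chromosome 1. Counted up to the end of the last peak, since chromosome lengths of this build were not used here, chromosome 12 had the most per megabase, 0.515, followed by chromosomes 16 (0.448), 10 (0.438), 19 (0.436) and 20 (0.423). Chromosome X had the fewest, 0.099, and chromosomes 2 (0.116) and 5 (0.126) were next. Narrower peaks were also most frequent on chromosome 12 (1.57 per megabase) and least on chromosome X (0.238). As a share of the chromosome's peaks, wide ones ranged from 17.2% on chromosome 5 (21 of 122, exact binomial 95% interval 11% to 25.1%) to 32.3% on chromosome 13 (20 of 62, interval 20.9% to 45.3%). These intervals are wide and cover counting error only, so they do not show whether the chromosomes' shares are alike. On chromosomes not in the rule, 22.4% of 237 peaks on chromosome 3 were 600 bp or wider (interval 17.2% to 28.2%), as were 32.8% of 418 on unplaced contigs (interval 28.3% to 37.5%) and 4 of 7 on chromosome Y.

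The kind of wide peak was also counted by chromosome. Unstepped peaks were 84% of the wide peaks on chromosome 19 (21 of 25), 82.1% on chromosome 9 (32 of 39) and 81.6% on chromosome 16 (31 of 38). They were 26.7% on chromosome 11 (4 of 15) and 28.6% on chromosome 5 (6 of 21). Some of these counts are small, none has an interval, and the matching shares of narrower peaks were not computed. Median folds of wide peaks lay between 4.64 on chromosome 16 and 6.42 on chromosome 17. On chromosome 19 the median distance from a wide peak to its nearest neighbour was 3281 bp, and on chromosome 11 it was 244432 bp. Distances of narrower peaks were not split by chromosome.

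**Figure D5:**
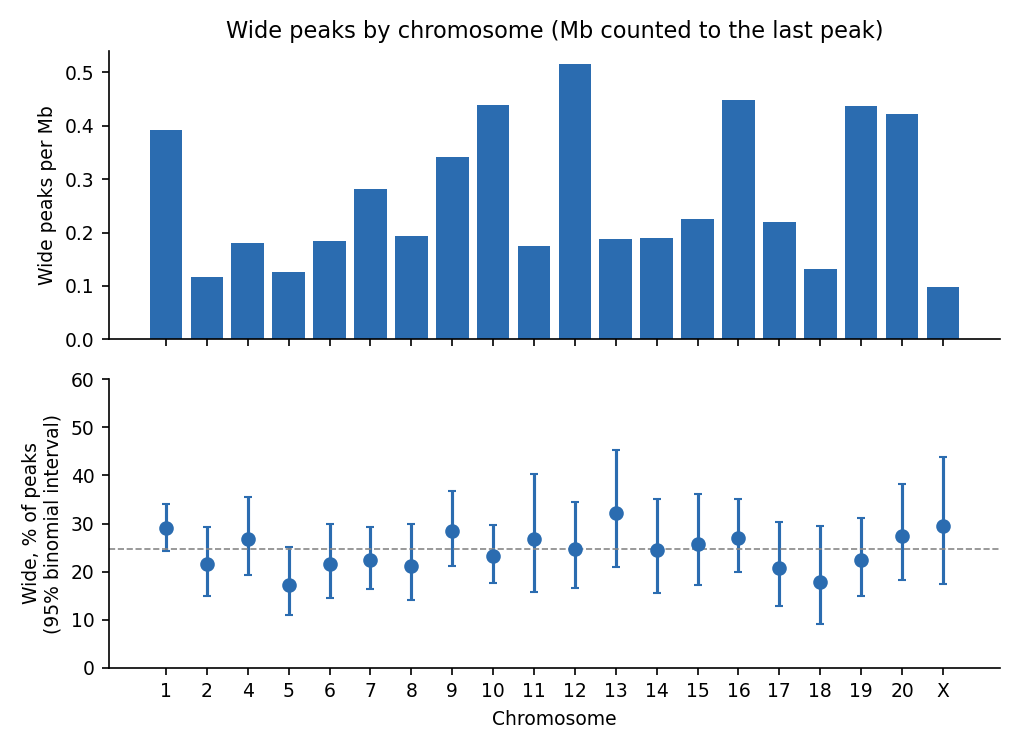
Wide peaks per megabase, counted to the end of the last peak (top), and wide peaks as a percentage of the chromosome's peaks with exact binomial 95% intervals (bottom), with the overall 24.6% as a dashed line. Chromosome 12 has the most per megabase (0.515) and X the fewest (0.099), and the share of wide peaks runs from 17.2% on chromosome 5 to 32.3% on chromosome 13.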

How the data were processed

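Peaks were read from the 1 list deposited for the CUT&Tag library. Per the narrowPeak layout of the deposited file, it gives a start, end and summit, a score, a fold enrichment (a linear ratio), and −log10 p and −log10 q values, all by the authors. The score was the whole-number part of 10 times the −log10 q in all but 1 peak. The peak caller, its settings, the control and the read depth are not given in the sources used here. The submitters' processing notes list Trim Galore, STAR, featureCounts and the build mRatBN7.2 for this sample, with no roles or versions. Widths, distances and summit positions were computed in Python (3.11.15) with pandas (2.3.3), numpy (2.4.6) and, for intervals, scipy (1.17.1), checked on simulated peaks with known answers, and drawn using matplotlib (3.10.9). The step of fold enrichment was found from 22 fold values that at least 15 peaks each shared.

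The 10 wide peaks of highest fold, the 5 widest and the 3 closest pairs were named by rule. The members were chosen with earlier results of these data known, and the stepped and unstepped kinds, the runs and the first and last peaks after the values were seen. The RNA tables list gene IDs without positions, and the reference tables at hand were of another build, GRCr8, and held no Ensembl gene IDs. Planned work on gene positions, gene lists and markers, base composition, motifs and expression of genes beside wide peaks was therefore not run, and no sequence is shown. Alternatives were other width minimums, stricter thresholds, joined peaks and summit distances.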

Additional observations from a re-analysis of the deposited data

How the results depend on the processing

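Of 55 recomputed values, 31 stayed within the interval of the reported value (for the number of peaks, within 1.5 times it). A width minimum of 500 bp gave 36.8% of peaks as wide and a median −log10 q of 12.5. One of 800 bp gave 292 peaks (12.2%), a median −log10 q of 19.5, and 40.4% with another peak within 10 kb. With a −log10 q of 5 or more, 31.1% were wide. The median folds were then 5.38 in wide and 4.97 in narrower peaks, closer together than the 5.35 and 4.35 of all peaks. Fold and p-value are tied in stepped peaks, so among these the setting selects on fold as well. With a fold of 10 or more, 41 were wide (54.7%), with a median −log10 q of 56.9 and 0% within 10 kb of another such peak. The median folds there, 10.9 in wide and 12.2 in narrower peaks, were in reverse order, but this setting selects on fold itself and so says nothing about the order of fold. Joining peaks under 100 bp apart changed nothing, as there were none, so the values of this setting were bound to be among the 31. Other alternatives were added after the data were seen. Joining peaks under 1 kb apart gave 27.4% wide and a summit distance of 40.6% of the way from centre to edge. Among stepped peaks alone 215 were wide (15.2%), with medians of 5.59 for fold and 9.97 for −log10 q, and among unstepped peaks alone 377 (38%), with 5.05 and 19.9. Within 10 kb of another of their kind were 49.9% of wide and 64.6% of narrower unstepped peaks, the reverse of the pooled order. For stepped peaks the shares were 1.86% of the wide (interval 0.509% to 4.69%) and 3.18% of the narrower. This interval covers counting error only and takes peaks as independent, and the difference was not tested. Without the first and last peak of each chromosome 567 wide peaks were left, with a median fold of 5.17. No paired analysis was possible because the results come from 1 library and no test. The alternatives for genes, motifs and expression were not run. The depth of the library is unknown, and with 1 library no value has an error between samples.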
